A study of Mus musculus with 32 samples.

Results

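The comparison described here asks in which genes the balance between the CAST/EiJ and the C57BL/6J (B6) allele differed between a pair of adult mouse brain regions, the preoptic area (POA) and the medial prefrontal cortex (PFC). It rests on 16 of the 32 libraries of the series, chosen by region, age and genotype and not by any measured value. They form 8 pools of first-generation (F1) offspring, 4 per region, with 2 technical replicate libraries per pool that the authors had summed. In each region 1 pool came from males and 1 from females of the F1i cross, whose mother was CAST/EiJ and father C57BL/6J, and 1 from males and 1 from females of the reciprocal F1r cross, whose mother was C57BL/6J and father CAST/EiJ. The animals were 5 weeks old, 8 to 10 were combined in a pool, and polyadenylated RNA was sequenced. The labels name no treatment and no engineered allele. They do not say whether the POA and the PFC of the same animals were used, so the pools were not treated as paired, and every p-value measures the spread between pools only.

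In an F1 animal both parental genomes sit in the same nuclei and meet the same transcription factors. A difference in RNA between the alleles is therefore attributed to sequence or chromatin on the chromosome itself, which is called cis regulation. Enhancers work in particular cell types, so a strain difference inside an enhancer can act in one brain region and not in another. Averaging reciprocal crosses separates such strain effects from genomic imprinting, in which the parent of origin decides which allele is read.

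Alleles were told apart at single bases that differ between the strains. For each gene reads carrying the CAST letter and reads carrying the B6 letter were each summed over the bases that both regional tables list. The CAST share is the CAST reads as a percent of both. A read that covers several such bases counts at each of them, so the read numbers given for genes and pools are sums over bases. Of 12556 autosomal genes with such bases, 10808 had a mean of at least 20 reads per pool and were tested. They held between 3349944 reads in the POA F1i male pool and 7159818 reads in the POA F1r female pool. The test (edgeR's quasi-likelihood F test, Benjamini-Hochberg adjusted p under 0.05) asks whether the log2 CAST:B6 ratio, averaged over both crosses, differs between POA and PFC; positive values mean a higher CAST share in POA.

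Libraries stood apart in 3 ways, and the part of each in the results was not tested. The distribution of reads along transcripts was more alike between PFC and embryonic day 15 brain (Spearman rho 0.77 over 7425 bases of 953 genes, log2 reads less the gene mean) than between POA and PFC (rho 0.38) or POA and the embryo (rho 0.19); these points share transcripts and base composition. The PFC F1i male pool had a median CAST share of 47.4%, against 48.6 to 49.5% in the other 7 pools. On chromosome 7 the POA F1r female and male pools had median shares of 52.5% and 50.9%, against 47.0 to 50.2% in the other 6 pools. Among 268 windows of 5 Mb with at least 10 genes of 50 or more reads per pool, the pools' medians lay more than 10 percentage points from their common median in 3, all on chromosome 7 and all in the POA F1r female pool. The largest gap outside chromosome 7 was 8.92 points. In the window at chr7:30000001-35000000 (mm9) the median share of 36 genes was 67.6% in the POA F1r female pool and 59.8% in the POA F1r male pool, against 48.2 to 51.4% in the other 6.

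**Figure D1:**
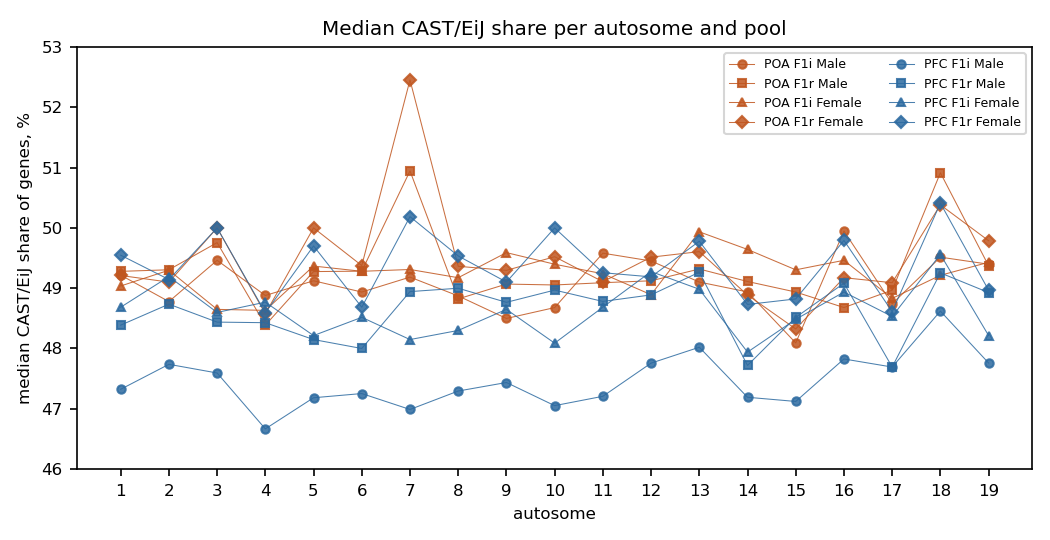
Median CAST/EiJ share of the tested genes (vertical axis in percent, running from 46 to 53) on each autosome (horizontal axis), 1 marker shape per cross and sex, POA in orange and PFC in blue. The POA F1r female pool reaches 52.5% on chromosome 7, and the PFC F1i male pool lies below 49% on all 19 autosomes.

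Cell type markers checked the dissections. Of 8 tested markers of cortical excitatory neurons, 6 had higher total reads in PFC and none in POA (median log2 -3.15, POA over PFC). Of 9 tested markers of preoptic and hypothalamic neurons, 8 were higher in POA and 1 in PFC (median log2 2.98), and all 15 oligodendrocyte and myelin markers were higher in POA. In bulk tissue, fewer cells of a type and less RNA per cell cannot be told apart. For the allele balance, a different mixture of cell types in the regions and a different balance within 1 cell type cannot be told apart either.

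Of the first 3 named genes in each direction, those that could be placed on the genome are shown by the 29 bases around their most deeply read strain-distinguishing base, to show where on the transcript the alleles were read. Hopx was placed through Ob1, another symbol for transcripts of the same locus. The letters are the reference (C57BL/6J) sequence of mm9 on the transcript's strand, and the capital is the base that tells the strains apart.
Ob1: acgctgtgcctcatCgcagccgaggcggg
Rpl7: tcagttaataaacaGtcacagcttggcaa
Cacng5: gggcacatccgtccGcaccggaccatact
Cltc: atgtgtaacaggtgTcctcatgttgtgct
With positions counted from 1 at the 5′ end of each window, the substitution from B6 to CAST is C15T in Ob1, G15C in Rpl7, G15C in Cacng5 and T15C in Cltc. The Ob1 window lies in a coding exon at chr5:77523913-77523941, and its CAST share ranged from 50 to 64% over the POA pools and from 15.5 to 28.6% over those of PFC. The Rpl7 window lies in the 3′ UTR at chr1:16091383-16091411, with 66.9 to 70.0% in POA and 88.8 to 92.2% in PFC. The Cacng5 window lies in a coding exon at chr11:107742946-107742974, with 42.3 to 58.3% in POA and 69.0 to 90% in PFC. The Cltc window lies in the 3′ UTR at chr11:86508394-86508422, with 48.2 to 51.4% in POA and 53.4 to 59.2% in PFC. All 4 windows are on the minus strand.

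Across the genome the strain ratio differed between regions in 1130 of 10808 genes (10.5%). The CAST share was higher in POA in 732 genes (6.77% of those tested) and higher in PFC in 398 (3.68%). When each CAST and B6 column was scaled to its own total (TMM), 1113 genes were called and the split became 545 against 568, so the excess of genes with more CAST in POA depends on the scaling. The 4 POA and 4 PFC shares did not overlap in 912 of the 1130 called genes, against 1581 of all 10808 tested (14.6%). The called genes had a median absolute log2 difference of 0.55, or 9.16 percentage points of CAST share, against 0.20 and 3.49 points over all genes tested. In 167 called genes the absolute log2 difference reached 1, and in 14 it reached 2.

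The count moved with the test and the pools. Without the POA F1i female pool 732 genes were called. DESeq2 called 255 genes (126 against 129), and all 255 were among the 1130. Its size factors, like TMM, scaled each CAST and B6 column separately. Limma on the log2 ratio of each pool, without such scaling, called 173 (106 against 67). The same limma test was also run on ratios in which the bases of a gene had the same weights in every pool. It called 62 (44 against 18), 60 of them among the 1130 with the same direction. A total of 45 genes were called in the same direction by edgeR and under all 5 alternatives named next. These were TMM scaling, bases at least 36 apart, DESeq2, limma, and limma with equal base weights. Of the 45, 32 had more CAST in POA and 13 more in PFC. Symbols that count the same reads, such as Hopx and Ob1, are counted separately here. Reads aligned to the genome were not part of this set. There Rpl11 had the opposite sign (log2 0.38) and Kdelc2 did not pass the test, though both are among the 45.

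**Figure D2:**
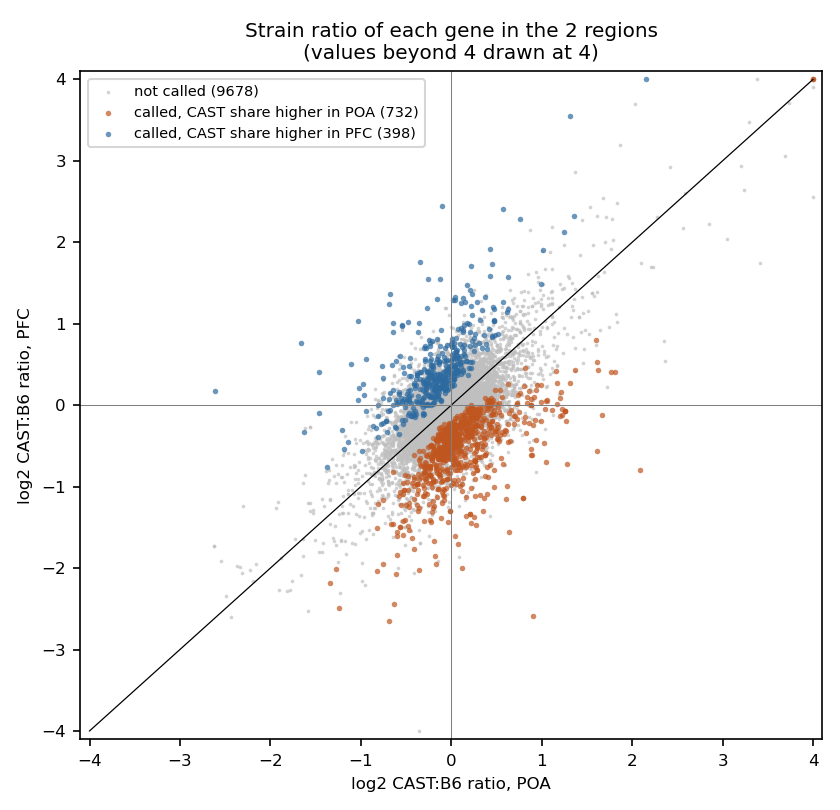
Log2 CAST:B6 ratio of each tested gene in POA (horizontal axis) and in PFC (vertical axis), from the edgeR fit; grey points are genes not called, orange points the 732 genes with a higher CAST share in POA and blue points the 398 with a higher share in PFC. The diagonal marks equal ratios, and the called genes lie on both sides of it.

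Most called genes had a strain bias that passed the test in one region and not in the other, though a bias passing in 1 region alone is no test of a difference; the difference itself is what was called above. Within POA the alleles differed in 2828 genes (26.2%), 1154 towards CAST and 1674 towards B6, and within PFC in 3922 genes (36.3%), 1268 towards CAST and 2654 towards B6. Without the POA F1r female pool the count within POA was 1848. With TMM scaling these splits became 1419 against 1358 in POA and 1935 against 1829 in PFC. Of the 1130 called genes, 593 (52.5%) were biased in PFC alone, against 20.5% of all genes tested. In POA alone 253 (22.4%) were, against 10.4%. Both regions were biased towards the same strain in 176 (15.6%, against 14.9%) and towards opposite strains in 93 (8.23%, against 0.86%). Neither region was biased in 15 (1.33%, against 53.3%). Among all genes tested, the same 93 were biased towards opposite strains. The biases come from the fit that made the calls, so these contrasts with all genes tested are a description. Of the 593 genes biased in PFC alone, 399 leaned to B6 and 194 (32.7%) to CAST. Among all 3922 genes biased within PFC, 32.3% leaned to CAST, a split that changed with TMM scaling as given above. The 93 genes with opposite biases divided into 48 that leaned to CAST in POA and B6 in PFC, and 45 that did the reverse.

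The 24 genes described next were the 12 with the smallest p in each direction among called genes with non-overlapping shares and at least 50 reads per pool. These values chose the genes, so they are a description. Adjusted p ranged from 9.57e-11 to 4.95e-06 (edgeR). For Stmn1, the gene with the lowest value, limma on the log2 ratio of each pool gave an adjusted p of 0.014. All 24 were also called in the same direction with TMM scaling and by DESeq2, and the 14 that the genome-aligned tables hold were called there too. With the same base weights in every pool (limma), 14 of the 24 kept their call. Mela reversed, and 9 kept their direction without passing the test: Aldoc, Spon1, Cltc, Sparcl1, Rbj, Wbp2, G3bp2, AK051573 and Serinc3. Among these symbols 3 pairs count the same reads: Hopx with Ob1, Scn3b with mKIAA1158, and Lypd1 with Gpr39, whose transcripts run in opposite directions over the same bases.

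**Figure D3:**
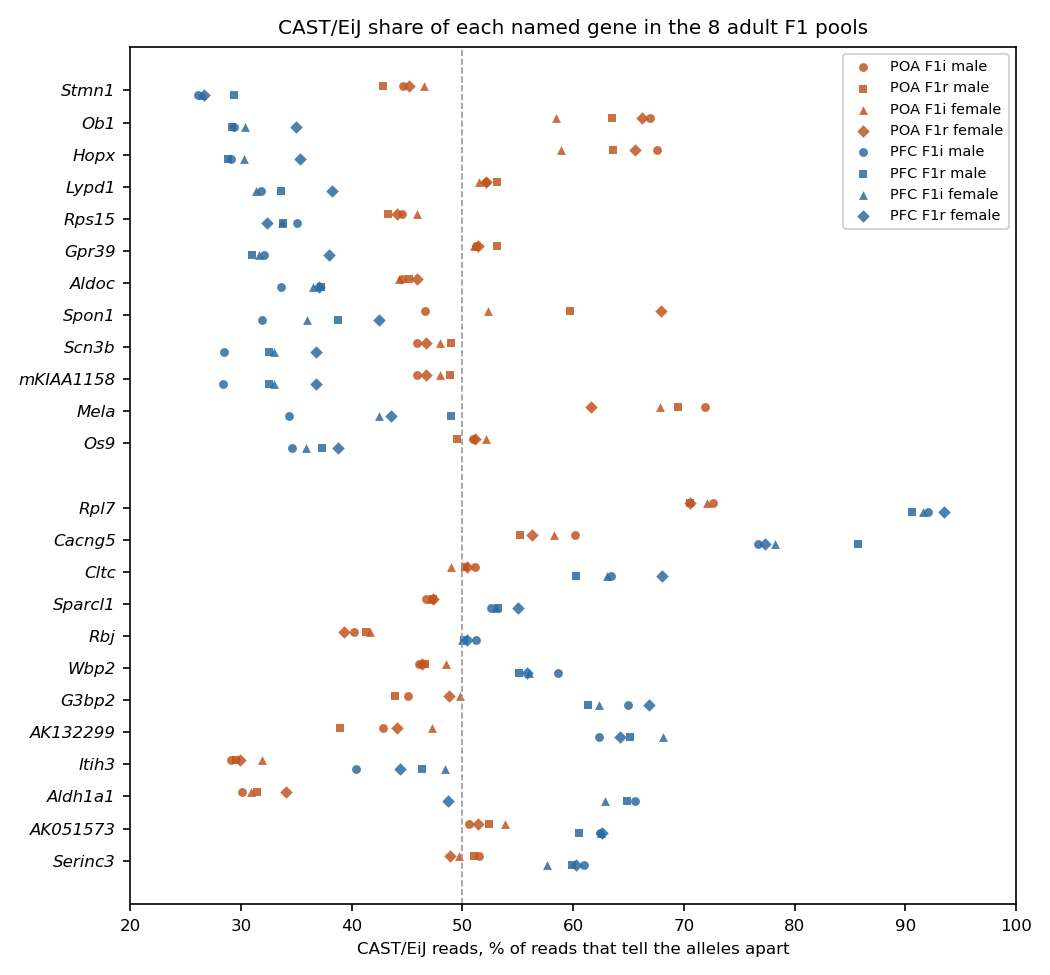
CAST/EiJ share (horizontal axis, percent of allele-informative reads) of the 24 named genes (rows) in each of the 8 pools; orange marks POA, blue marks PFC, and the marker shape gives cross and sex. The upper 12 genes have more CAST in all 4 POA pools than in any PFC pool, and the lower 12 the reverse; Hopx crosses 50% between the regions.

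Hopx, a small homeodomain protein without DNA binding of its own that is found in astrocytes and progenitors (chr5:77515468-77544186), had CAST shares of 67.6, 63.6, 58.9 and 65.6% in the POA pools (F1i male, F1r male, F1i female, F1r female) and of 29.1, 28.8, 30.3 and 35.3% in the PFC pools in the same order. Every POA pool leaned to CAST and every PFC pool to B6. The log2 difference was 1.94 ± 0.13 (SE), with a mean of 63.9% ± 3.73 (SD, n = 4) in POA and 30.9% ± 3.03 (SD, n = 4) in PFC. It was 1.95 in the F1i pools alone and 1.93 in the F1r pools alone, and all 9 tested bases of the gene had a higher CAST share in POA. Total Hopx reads were lower in POA than in PFC (log2 -1.33).

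Stmn1, which encodes stathmin, a protein that destabilises microtubules (chr4:134024235-134029758), had POA shares of 44.6, 42.9, 46.5 and 45.2% and PFC shares of 26.2, 29.4, 26.4 and 26.6%. Both regions leaned to B6, PFC by more. On the log2 scale the difference was 1.13 ± 0.07 (SE), and all 4 tested bases were called in that direction.

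At the Lypd1 and Gpr39 locus (chr1:127764199-127809678 and chr1:127573572-127770439) the annotated genes, a Ly6-family membrane protein and a zinc-sensing receptor, overlap on opposite strands. The shares under Lypd1 were 52.1, 53.1, 51.5 and 52.1% in POA and 31.8, 33.6, 31.4 and 38.2% in PFC. The alleles were near balance in POA (log2 0.12, adjusted p = 0.18 in edgeR) and leaned to B6 in PFC (log2 -0.97). The regions differed by a log2 of 1.09 ± 0.09 (SE), with 9 of 9 tested bases in that direction, while total reads gave a log2 of 0.01 (adjusted p = 0.92 in edgeR).

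Among the other genes with more CAST in POA, Aldoc, the brain aldolase and an astrocyte marker (chr11:78136470-78141283), had 44.2 to 45.9% in POA and 33.6 to 37.3% in PFC. The regions differed by a log2 of 0.53 ± 0.05 (SE), and all 7 tested bases agreed in sign. Rps15, a protein of the small ribosomal subunit, had 43.3 to 45.9% in POA and 32.3 to 35.0% in PFC. Scn3b, an auxiliary subunit of voltage-gated sodium channels, had 45.9 to 49.0% and 28.4 to 36.8%, but 5 of its 17 tested bases pointed the other way. Os9, a lectin of the endoplasmic reticulum that serves protein degradation, had 49.6 to 52.1% in POA and 34.6 to 38.8% in PFC. Of its 6 tested bases 5 had the sign of the gene. The largest differences in Os9 were at positions 1993 and 1999 (log2 1.59 and 1.23), close enough for 1 read to cover both. At positions 2197 and 2559 the log2 was -0.06 and 0.19. The Scn3b bases at positions 772, 796 and 799 had log2 values of 2.05, 1.51 and 1.51, against 0.002 and 0.08 at positions 3942 and 4094.

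Spon1, which encodes the secreted matrix protein F-spondin (chr7:120909512-121186884), is the named gene on chromosome 7. Its shares were 46.7 and 52.4% in the F1i pools of POA but 59.7 and 68.0% in the F1r pools, the pools that stood apart on that chromosome. PFC shares were 31.9, 38.7, 36.0 and 42.4%. The log2 difference was 0.95 in the F1i pools alone and 1.41 in the F1r pools alone. All 12 tested bases of Spon1 had that sign, and 4 were called. The base at position 2625, with the most PFC reads of them (1082), had 60.3% in POA and 16.2% in PFC. Mela, a transcript related to a retroviral envelope and so likely to have near-identical copies, is uncertain. Its summed shares were 61.6 to 71.9% in POA and 34.4 to 49.0% in PFC, yet only 1 of its 3 tested bases pointed that way and none was called. With the same base weights in every pool its log2 was -0.15 (adjusted p = 0.64 in limma), since 1 base with a CAST share of 22.0% in POA and 22.6% in PFC held 423 reads in POA and 2523 in PFC.

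In the other direction Rpl7, a protein of the large ribosomal subunit (chr1:16091376-16094743), had POA shares of 72.6, 70.5, 72.1 and 70.5% and PFC shares of 92.1, 90.6, 91.6 and 93.5%. CAST reads prevailed in both regions and most in PFC. The log2 difference was -2.23 ± 0.15 (SE), the largest of the 24, and both tested bases were called. These bases lie at transcript positions 887 and 896, so a 36-base read can cover both. Ribosomal protein genes have processed copies elsewhere in the genome, and how reads that match several places were divided is not given in the sources used here.

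Cacng5, an auxiliary subunit of AMPA-type glutamate receptors (chr11:107735919-107776369), had POA shares of 60.2, 55.2, 58.3 and 56.3% and PFC shares of 76.7, 85.7, 78.2 and 77.3%. Its log2 difference was -1.48 ± 0.15 (SE), all 7 tested bases had that sign, and total reads were higher in POA (log2 1.05). Aldh1a1, which makes retinoic acid from retinaldehyde (chr19:20676451-20717952), had 30.1, 31.4, 30.9 and 34.1% in POA and 65.6, 64.9, 62.9 and 48.7% in PFC. It leaned to B6 in POA and to CAST in 3 of 4 PFC pools, with a log2 difference of -1.61 ± 0.19 (SE).

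Itih3, a heavy chain of the inter-alpha-trypsin inhibitors that bind hyaluronan (chr14:31721759-31736946), leaned to B6 in both regions. Its shares were 29.1 to 31.9% in POA and 40.4 to 48.4% in PFC, and 12 of 12 tested bases had that sign. Sparcl1, an astrocyte-secreted protein known for promoting synapses, was the most deeply read of the 24, with a mean of 33856 reads per pool. Its regional shares differed little but did not overlap, at 46.7 to 47.3% in POA and 52.6 to 55.1% in PFC, and all 18 tested bases had the same sign. Rbj encodes a small GTPase with a DnaJ domain. Its summed shares were balanced in PFC at 49.9 to 51.2% and leaned to B6 in POA at 39.3 to 41.6%. Of its 40 tested bases 35 had the sign of the gene. The base at position 3580 was called the other way, with 40.6% in POA and 21.7% in PFC.

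Several of the genes rest on a stretch of the transcript. In Serinc3, a membrane protein of the serine incorporator family, the summed shares were 48.9 to 51.5% in POA and 57.7 to 61.0% in PFC. Only 10 of its 18 tested bases had the sign of the gene. The 5 bases that were called all lie between transcript positions 557 and 776, where the shares were 44.1 to 49.5% in POA and 58.5 to 71.8% in PFC. At position 1085 the shares were 52.9% and 48.9%, and at position 1738 they were 86.6% and 86.5%. In Cltc, the clathrin heavy chain of coated vesicles, the summed shares were 48.9 to 51.2% in POA and 60.2 to 68.0% in PFC. The base at position 5715 had 60.9% in POA and 83.8% in PFC, whereas the base at position 2840 had 48.7% and 51.4%. Bases of one gene share their animals and often their reads, so they are not replicates.

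**Figure D4:**
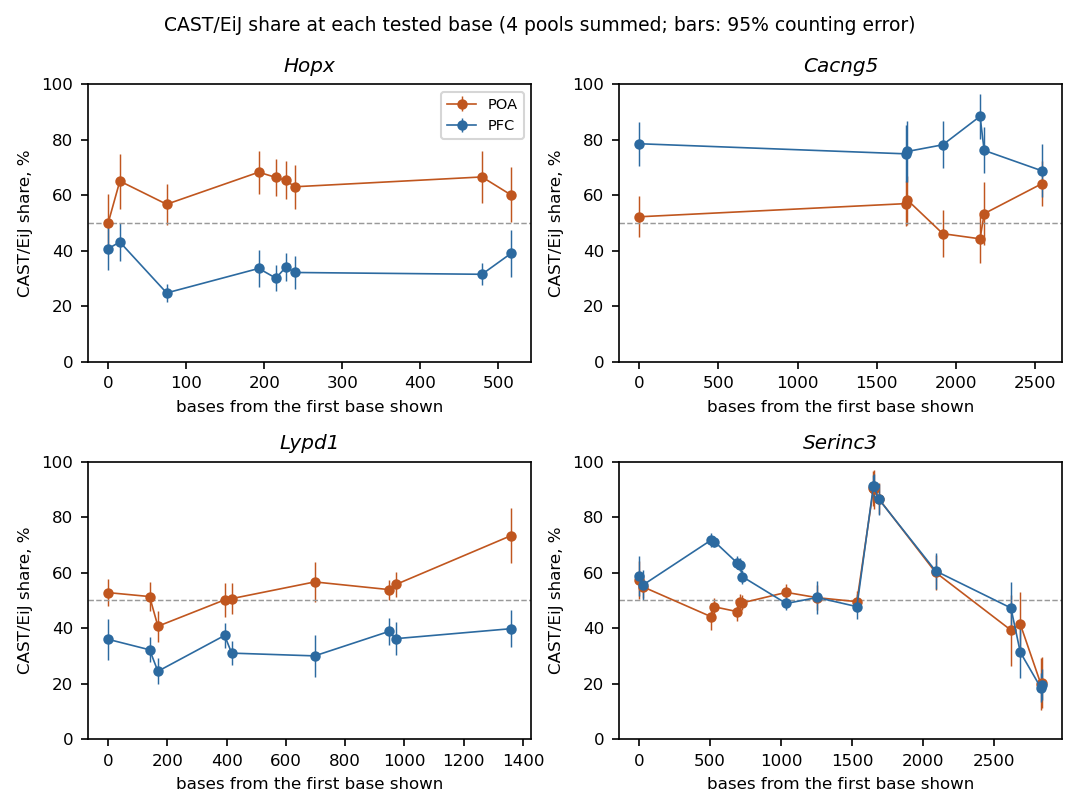
CAST/EiJ share (vertical axis, percent) at each tested base of Hopx, Cacng5, Lypd1 and Serinc3 against its distance in bases from the first base shown; the 4 pools of a region are summed, bars are 95% counting error, POA in orange and PFC in blue. The share lies on the same side at every base shown of Hopx, Cacng5 and Lypd1, though the bars of the regions overlap at several, such as the first of Hopx and the last of Cacng5; in Serinc3 the 5 called bases lie in 1 stretch.

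Over all genes the bases within a gene often disagreed. Of 55853 bases tested singly, 3796 were called (6.8%). Of 855 called genes with at least 3 tested bases, 216 had every base in the direction of the gene, and 639 had at least 1 base in the other direction. Among all 5815 tested genes with at least 3 such bases, 682 had every base in the gene's direction. When only the deepest base of each gene was used, 685 of 8409 genes were called; of the 1035 called genes still tested, 374 kept their call and 98 had the opposite sign. Which transcripts of a gene the bases belong to was not resolved, so a difference between alleles in one isoform and a difference in isoform use between regions cannot be told apart.

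Calls were more frequent among deeply read genes. Of genes with 20 to 50 reads per pool 2.51% were called, and of those with 1000 or more reads 29.4%. The lists of genes are therefore given with their median reads per pool, against 187 over all genes tested. With the same base weights in every pool (limma), 62 of 10808 genes were called (0.57%). None was a listed astrocyte, GABAergic, preoptic, oligodendrocyte, microglial, neuropeptide, mitochondrial, synaptic vesicle, transmitter receptor or imprinted gene. Of the ribosomal genes, 1 was called there with more CAST in POA and 3 in PFC. Glutathione transferases and channels each had 1 call in each direction, and the Zfp genes had 1 in PFC. DESeq2 called 255 of all 10808 genes tested (2.36%), and fewer members than edgeR of each list named next. It called 1 astrocyte marker, no GABAergic marker, 6 neuropeptide genes and 6 ribosomal genes. It also called 3 mitochondrial genes, 2 glutathione transferases, 3 channels and 2 transmitter receptors.

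**Figure D5:**
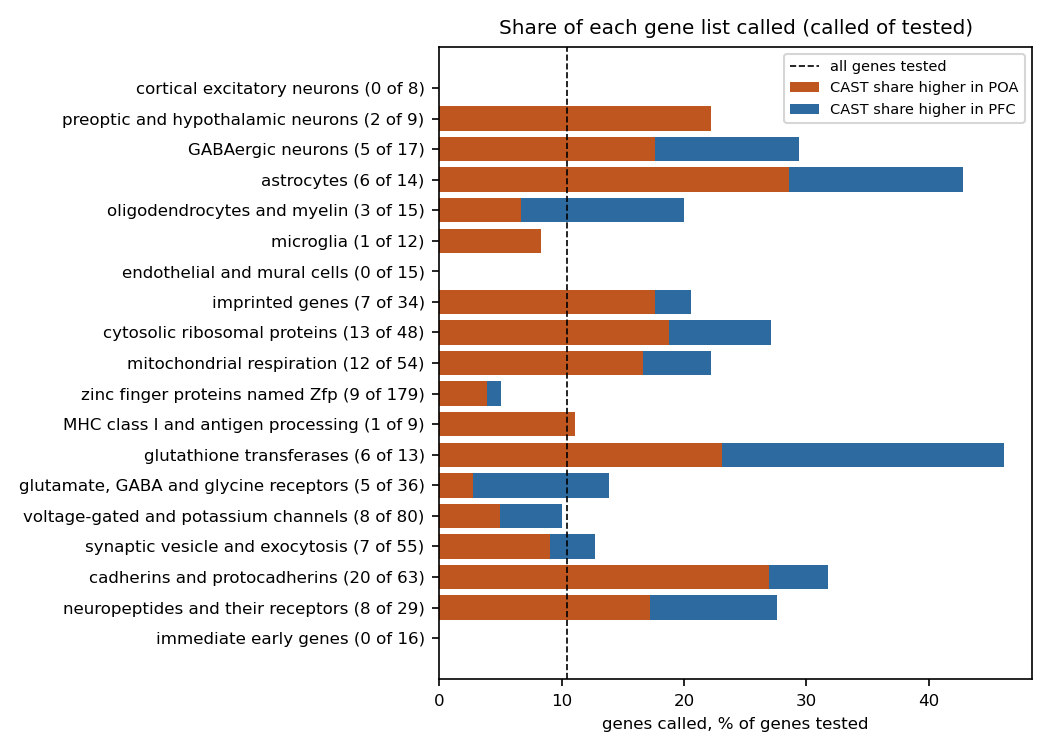
Percent of the tested genes of each list that were called (horizontal axis from 0), with more CAST in POA in orange and in PFC in blue; the dashed line is the 10.5% of all genes tested. Numbers beside each list are called of tested genes.

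Among the astrocyte markers 6 of 14 were called, 4 with more CAST in POA and 2 in PFC (median 1491 reads). Besides Aldoc, Glul, the glutamine synthetase that clears glutamate, had mean shares of 48.1% in POA and 44.2% in PFC (log2 0.23 ± 0.04, SE). Slc1a2, the main glutamate transporter, had 50.2% and 45.5% (log2 0.27 ± 0.07, SE). Slc1a3, the other astrocyte glutamate transporter, went the opposite way, at 53.2% and 56.4%. Of 17 GABAergic markers 5 were called, 3 with more CAST in POA and 2 in PFC (552 reads). Calb2, the calcium-binding protein calretinin, had mean shares of 50.5% in POA and 39.2% in PFC, and Gad2, which makes GABA, had 50.5% and 55.5%. Of 9 preoptic and hypothalamic markers 2 were called (403 reads), both with more CAST in POA. They were Tac1 and Hap1, a huntingtin-associated protein abundant in the hypothalamus, with 49.6% in POA and 46.1% in PFC. Of 15 oligodendrocyte and myelin markers 3 were called (777 reads), and of 12 microglial markers 1 was (245 reads). None was called of 15 endothelial and mural markers (144 reads), of 8 cortical excitatory markers (425 reads) or of 16 immediate early genes (164 reads). All 16 immediate early genes had higher total reads in PFC. The excitatory markers with the most reads, Camk2a and Nrgn, had log2 differences of -0.09 each (adjusted p = 0.26 and 0.46 in edgeR), although total reads differed by a log2 of -3.08 and -5.21.

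Of 29 neuropeptides and receptors 8 were called, 5 with more CAST in POA and 3 in PFC (381 reads). Tac1, the precursor of substance P, had POA shares of 46.3, 45.97, 52.5 and 46.7% and PFC shares of 31.4, 27.3, 28.7 and 33.7%. The alleles were near balance in every POA pool and leaned to B6 in every PFC pool (log2 1.09 ± 0.18, SE; 5 of 5 tested bases), and total reads were higher in POA (log2 2.98). Penk1, the precursor of enkephalins, went the other way with mean shares of 46.4% in POA and 56.8% in PFC (log2 -0.59 ± 0.11, SE). The granins of dense-core vesicles differed in direction: Chgb had 47.2% in POA and 40.1% in PFC, and Chga had 48.7% and 54.9%. Sstr3, a somatostatin receptor, had 54.3% and 35.9% (log2 1.07 ± 0.22, SE).

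Ion channels and transmitter receptors had shares of calls near that of all genes. Of 80 voltage-gated and potassium channel genes 8 were called (10.0%; 352 reads), 4 in each direction, and of 36 glutamate, GABA and glycine receptor genes 5 were called (13.9%; 310 reads), 1 with more CAST in POA and 4 in PFC. Kcnc2, a fast potassium channel, had mean shares of 45.4% and 54.6% (log2 -0.54 ± 0.09, SE). Of 55 synaptic vesicle and exocytosis genes 7 were called (456 reads), including Vamp1, a vesicle fusion protein, with 48.5% in POA and 39.3% in PFC.

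Among 63 cadherin and protocadherin genes 20 were called, 17 with more CAST in POA and 3 in PFC (174 reads). With TMM scaling the counts were 16 and 5, and with DESeq2 they were 1 and 1. In the genome-aligned tables, which hold 24 of these genes, they were 1 and 3, and with the same base weights none was called. Of the 17, 12 are symbols of the protocadherin alpha cluster on chromosome 18, neuronal adhesion proteins made by joining alternative first exons to shared constant exons. The 12 called symbols had mean shares of 62.8 to 68.6% in POA and 46.5 to 51.8% in PFC. Because the constant exons count under every symbol of the cluster, these are not 12 separate observations. Outside the cluster 5 of 49 genes were called with more CAST in POA and 3 in PFC.

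Of 48 cytosolic ribosomal protein genes 13 were called, 9 with more CAST in POA and 4 in PFC (691 reads); with TMM scaling there were 7 and 7. In the genome-aligned tables, which hold 21 of these genes, none was called with more CAST in POA and 1 with more in PFC. Rpl11 and Rps6 had the opposite sign there, with log2 values of 0.38 and -0.52 that did not pass the test. Besides Rps15 and Rpl7, Rpl27a had mean shares of 45.3% in POA and 34.6% in PFC, and Rpl37a had 55.8% and 69.4%. Of 54 nuclear genes of mitochondrial respiration 12 were called, 9 and 3 (681 reads). Cox6a1, a cytochrome oxidase subunit, had 66.2% in POA and 50.6% in PFC, and Atp5e, of the ATP synthase, had 52.6% and 61.4%. Of 13 glutathione transferases 6 were called, 3 in each direction (218 reads). Gstm5 had 45.3% in POA and 62.2% in PFC (log2 -1.01 ± 0.14, SE), and Gstz1, with 11 of 11 tested bases in that direction, had 60.0% and 70.6%. Within the Gstm group, and within the Gstp group, some transferases are close copies of each other, so their shares are uncertain. Of 179 zinc finger genes named Zfp 9 were called (5.03%; 108 reads), and of 9 genes of MHC class I and antigen processing 1 was (99.4 reads). No marker of choroid plexus and ependyma, of 12 listed, was among the genes tested.

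Of 34 imprinted genes 7 were called, 6 with more CAST in POA (341 reads). In 5 of the 7 the shares of the regions overlapped, with values near 0 in one cross and near 100% in the other. Impact, on chromosome 18, had POA shares of 5.09 and 7.88% in F1i pools and 97.7 and 96.7% in F1r pools, and PFC shares of 2.86 and 0.76% in F1i and 91.8 and 83.9% in F1r pools. A mean over crosses on the log2 scale then rests on the few reads of the less read allele in each cross. Gnas, the stimulatory G protein locus, did not overlap between regions: its POA shares were 58.8, 40.8, 58.2 and 39.9%, and its PFC shares 20.1, 33.3, 33.7 and 22.8%. Only 2 bases of Gnas were tested, and both had more CAST in POA (log2 1.40 ± 0.18, SE). Cd81 had 48.5% in POA and 55.2% in PFC.

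A difference in allele balance came with and without a difference in total reads. Total informative reads differed between regions in 6208 of 10808 genes (57.4%), 3020 higher in POA and 3188 in PFC; scaled to library totals the split was 4612 against 2055. Of the 1130 genes with a regional allele difference, 743 also differed in total reads, 288 higher in POA and 455 in PFC. Of the 24 named genes, 19 differed in total reads, from a log2 of 2.95 in Itih3 to -1.78 in AK132299, and 5 did not pass the test.

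The embryonic day 15 brain of the same crosses, 1 F1i and 1 F1r pool that the test did not use, was set beside the adult shares as a description. Of 1100 called genes with at least 20 reads in both embryonic F1 pools, the mean embryonic share was nearer to PFC in 707, and of all 10349 genes with such reads in 5898. Across 3109 deeply read genes the log2 strain ratios of PFC and embryo had a Spearman rho of 0.68, POA and PFC 0.56, and POA and embryo 0.43. The interquartile range of these ratios was 0.25 in POA, 0.33 in PFC and 0.34 in the embryo. Hopx had embryonic shares of 42.2% in F1i and 36.6% in F1r, between the adult regions, and Rps15 had 34.3% and 24.5%, within or below the PFC range. Lypd1, at 58.3% and 51.0%, and Cacng5, at 48.5% and 52.8%, were nearer to POA.

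Both crosses and both sexes were compared. Estimated in F1i and in F1r pools separately, 1127 of the 1130 called genes had the same sign in both, against 6992 of all 10808 tested. All 1130 had the same sign in male and in female pools, against 7115 of all tested. These pools also made the calls, so the agreement is a description. Chromosome 7 held 97 genes called with more CAST in POA and 24 with more in PFC, of 846 tested (14.3%), against 10.1% on the other autosomes. Without the POA F1r female pool the counts on chromosome 7 were 54 and 21, and in the F1i pools alone 25 and 14. With chromosome 7 left out, 998 genes were called on the other autosomes.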

How the data were processed

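The files hold read counts per strain-distinguishing base, deposited by the authors, with the 2 technical replicates of a pool already summed. Per the labels' protocols, 36 cycles were read from inserts of about 200 bases, and the aligner was Novoalign and the genome build mm9, per the submitters' processing notes; the division of multiply matching reads and the use of strand are not given in the sources used here. Bases listed in both transcript tables were kept (199718 on autosomes), positions listed more than once were dropped (1236), and counts were summed over the transcript with the most reads. Genes with a mean of at least 20 reads per pool were fitted with edgeR 4.0.16 (R 4.3.3), with 1 term per pool, allele, allele by cross and allele by region, and 5 residual degrees of freedom; both alleles of a pool had the same library size. The edgeR spread of each gene was drawn towards that of all genes, with 18.4 prior degrees of freedom. DESeq2 1.42.0, and limma 3.58.1 with a pseudocount of 0.5, were alternatives. The genome-aligned alternative used all bases in GENCODE exons of a gene. Scripts were tested on simulated data. Intervals cover counting error only, since PCR copies are not marked.

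Named genes were the 12 of smallest p in each direction with non-overlapping shares and at least 50 reads per pool, together with called members of the lists and, where a list had none, its 2 members with the most reads. The genes and lists were chosen with earlier results of these data known. Gene positions are from GENCODE for mm9; 8261 of 10808 tested symbols matched. Sequences are from the mm9 genome, at places where the called bases of a transcript matched its exons and lay in the genome-aligned tables; the Stmn1 transcript was not placed. Some members of the gene lists are not reported here.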

Additional observations from a re-analysis of the deposited data

Results flagged for a closer look

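In 48 groups of 4 pools (24 named genes in 2 regions) 6 had 1 pool set apart from the other 3 by a gap beyond Dixon's critical value; chance flags about 1 group in 20, and symbols that share reads are counted separately. In PFC, the F1r male pool was high for Stmn1 (29.4%, others 26.2 to 26.6%) and for Cacng5 (85.7%, others 76.7 to 78.2%), and low for AK051573 (60.5%, others 62.4 to 62.6%). The PFC F1r female pool was high for Gpr39 (38.0%, others 31.0 to 32.1%) and low for Aldh1a1 (48.7%, others 62.9 to 65.6%). In POA the F1r male pool was high for Gpr39 (53.1%, others 51.1 to 51.4%).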

How the results depend on the processing

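Against 1130 genes called, 685 (of 8409 tested) were called from the deepest base of each gene, 822 (of 7655 tested) from genome-aligned reads, 556 in F1i pools only, 444 in F1r pools only, 156 in male pools only, 855 in female pools only, 173 with limma, 62 with limma on the same base weights in every pool and 255 with DESeq2. Of 819 called genes held by the genome-aligned tables, 555 kept their call and 25 had the opposite sign. Leaving out 1 pool gave 732 (without the POA F1i female pool) to 967 (without the POA F1r male pool). Within POA, leaving out 1 pool gave 1848 (without the POA F1r female pool) to 2923 strain-biased genes. Of 732 re-estimates of the 24 named genes, 718 kept direction and call, 11 kept direction only and 3 reversed: Mela to -0.057 (deepest base) and -0.15 (same base weights), and Serinc3 to 0.24 (deepest base). The same base weights and 1 symbol per shared set, with 1066 calls, and leaving out chromosome 7 were chosen after seeing the data. No paired analysis was possible because the replicate numbers mark technical replicates that are summed in the deposited columns, and the labels tie no POA pool to a PFC pool. A fit that matched pools by cross and sex instead gave 1051 calls. The causes were not tested.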
